A study of Homo sapiens with 6 samples.

Results

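Neurons and neuroendocrine cells release transmitter from vesicles that dock at the cell membrane, fuse when calcium enters and are then recovered by endocytosis. Expression of 57 genes of this machinery was measured in SH-SY5Y cells, a human neuroblastoma line of noradrenergic type that the labels class as a neuronal progenitor. The genes were listed by name, out of 58096 gene rows and with earlier results of these data known. They took in 14 calcium sensors, 8 SNAREs and their regulators, 10 vesicle membrane proteins and synapsins and 5 genes of RAB3 and its effectors. The others were 10 of the active zone and priming, 4 vesicular transporters and 6 endocytic genes. All 57 were found in the table, and 53 had enough reads to be tested. Cells had been given 2 ul of adenovirus for 48 h, carrying either GFP (group GFP, 3 libraries) or PGC-1a (group PGC1A, 3 libraries). PPARGC1A encodes PGC-1a, a coactivator of transcription best known for its role in making mitochondria. Every library comes from the same line and every culture received a virus. The labels give neither the titre of the viruses nor separate cultures for the replicates, so the p-values reflect only how far these samples spread, which may be technical, and unequal viral dose cannot be told apart from an effect of PGC-1a.

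At a synapse, the vesicle SNARE VAMP2 pairs with STX1A and SNAP25 on the cell membrane, and complexins hold this complex until a synaptotagmin binds calcium. RIM, Munc13 and CAPS proteins of the active zone dock and prime the vesicles, RAB3 proteins guide them there, and vesicular transporters fill them. After fusion, NSF with SNAP adaptors takes the SNARE complex apart, while dynamin, amphiphysin and synaptojanin recover the membrane. The sympathetic lineage that SH-SY5Y cells derive from also uses much of this machinery on dense-core granules that hold catecholamines.

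The virus insert checks the labels: PPARGC1A had 98, 131 and 135 counts in GFP and 109350, 104546 and 103737 in PGC1A. Depth was 24988743 to 31762496 counts in genes per library, and within-group correlations of log2 CPM (each count as its part per 1e6 of the TMM-scaled library) were 0.995 to 0.996 across genes. Markers of the noradrenergic line were present in both groups but lower in PGC1A, where 9 of 10 tested fell and 0 rose; their summed level was 1357 to 1376 CPM in GFP and 662 to 678 in PGC1A. TH, which makes dopamine's precursor, had no counts in GFP and 7, 5 and 9 in PGC1A, and was not tested. Of 5 tested neural progenitor markers 4 fell and 1 rose, and NES (nestin) went from 747 ± 3.55 to 183 ± 4.53 CPM (SD, n = 3). Among the falls, that of the proliferation gene MKI67 was small, from 151 ± 3.80 to 144 ± 1.44 CPM. PROM1 had few reads, 41 counts summed over GFP and 13 over PGC1A. Mesenchymal-type neuroblastoma markers fell too, 9 of 10, from 3498 to 3553 CPM summed in GFP to 1695 to 1725 in PGC1A. The Schwann cell marker SOX10 was at 0 in all 6 libraries. Transcripts of the mitochondrial genome took 6.44% to 6.87% of gene counts in GFP and 13.7% to 14.2% in PGC1A. The part of these shifts in the results that follow was not tested. In bulk RNA, fewer cells of a type and less RNA per cell cannot be told apart.

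Vesicle genes split into those that rose and those that fell, and few stayed in place. Of the 53 tested, 28 rose and 23 fell (edgeR quasi-likelihood test, adjusted p below 0.05 over all 19343 genes tested). That is 96.2% of them, where 83.0% of all genes tested passed, 40.9% higher and 42.1% lower, so a call by itself says little here. The libraries of the groups did not overlap in 51 of the 53 (96.2%), against 83.6% of all genes. Asked instead for a change beyond 1.5-fold (glmTreat), 23 members were higher and 19 lower, 79.2% of those tested, beside 47.8% of all genes (24.6% higher, 23.1% lower). Rises of at least 2-fold were seen in 19 members (35.8%, against 19.0% of all genes) and falls of that size in 15 (28.3%, against 16.8%). At 4-fold there were 12 rises (22.6%, against 8.01%) and 6 falls (11.3%, against 4.37%). The median log2 fold change of the members was 0.12 beside −0.03 for all genes, while the median size of change, either direction, was 1.54 beside 0.70. These comparisons with all genes are descriptions and were not tested. With total counts the median of all genes moved to −0.36 and that of the members to −0.21, so directions here are relative to the TMM scaling.

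**Figure D1:**
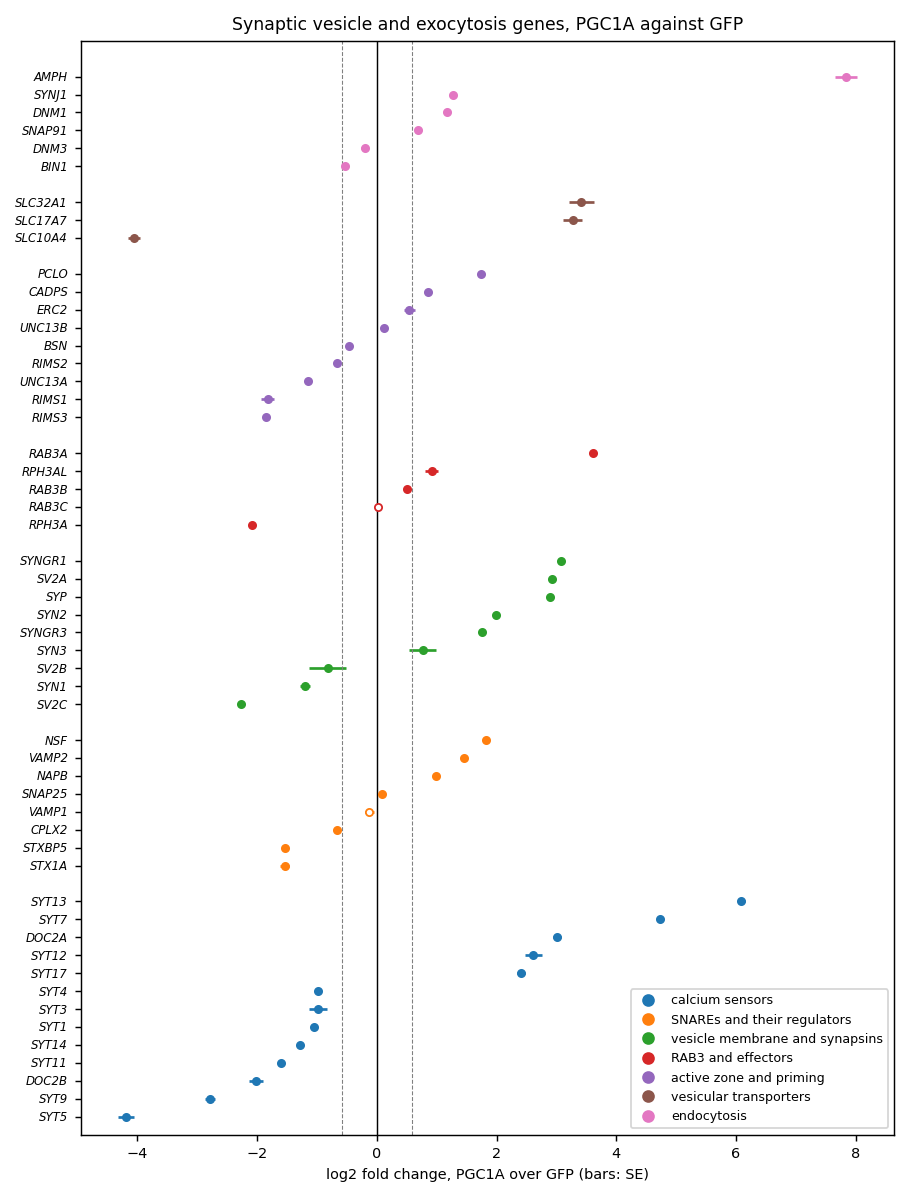
Log2 fold change of PGC1A over GFP (horizontal axis, bars show the SE) for the 53 tested members grouped by role; filled points passed an adjusted p of 0.05, open points did not, and dashed lines mark 1.5-fold. Members of every role lie on both sides of 0, from SYT5 at −4.20 to AMPH at 7.84.

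**Figure D2:**
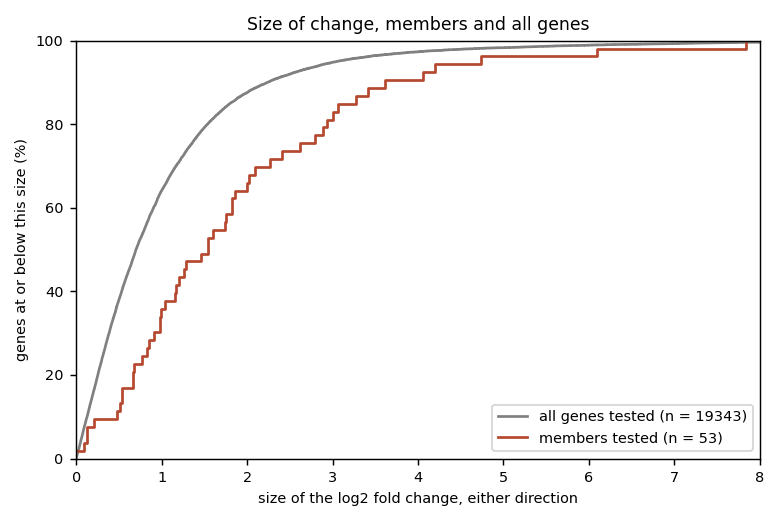
Cumulative share of genes (vertical axis, %) by the size of their log2 fold change in either direction (horizontal axis). Over most of its length the curve of the 53 members lies to the right of that of all 19343 genes tested, with medians of 1.54 and 0.70.

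Promoters of 4 members are shown because these genes moved in opposite directions, the synapsin genes SYN1 and SYN2 among them. RefSeq (GRCh38.p14) gave the 250 bases before its start for 45 of the 57 members. Some of these windows lie away from the start of the gene in GENCODE 29. Those of SV2A, RPH3A, SYNPR, DNM1 and SYT9 are well inside the gene, and that of SYT3 is well outside it. Such windows are in the motif counts and GC contents that follow. SYP, RAB3A and SYN2 rose and SYN1 fell; each is read 5′ to 3′, without any base that lies inside the gene in GENCODE 29, and capitals mark matches to the motifs listed after them.
SYP, chrX:49200260-49200443, minus strand: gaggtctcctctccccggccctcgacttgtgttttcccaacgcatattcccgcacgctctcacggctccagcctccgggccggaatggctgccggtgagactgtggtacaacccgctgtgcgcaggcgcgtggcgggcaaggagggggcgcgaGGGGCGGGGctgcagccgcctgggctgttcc
RAB3A, chr19:18204075-18204292, minus strand: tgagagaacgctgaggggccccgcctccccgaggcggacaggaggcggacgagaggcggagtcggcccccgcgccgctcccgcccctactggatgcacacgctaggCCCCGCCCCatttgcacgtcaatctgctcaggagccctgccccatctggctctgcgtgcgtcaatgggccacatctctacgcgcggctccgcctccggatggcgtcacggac
SYN2, chr3:12004138-12004387, plus strand: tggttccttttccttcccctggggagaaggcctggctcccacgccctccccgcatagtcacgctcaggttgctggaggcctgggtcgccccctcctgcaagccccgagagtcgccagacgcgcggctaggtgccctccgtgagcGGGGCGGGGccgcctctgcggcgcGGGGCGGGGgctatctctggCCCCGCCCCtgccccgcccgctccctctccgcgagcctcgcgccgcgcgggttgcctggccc
SYN1, chrX:47619944-47620107, minus strand: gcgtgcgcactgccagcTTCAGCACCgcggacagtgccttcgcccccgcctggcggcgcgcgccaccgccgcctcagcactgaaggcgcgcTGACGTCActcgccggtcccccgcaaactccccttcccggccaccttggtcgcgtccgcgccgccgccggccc

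The capitals in SYP, RAB3A and SYN2 are GC boxes (GGGGCGGGG or its complement, the type of site that SP1 binds), and those in SYN1 are the left arm of an RE1 element (TTCAGCACC), the site of the neuronal gene repressor REST, and a cyclic AMP response element (TGACGTCA). Searched on both strands of the 250 bases, the GC box was in 24 of 45 member promoters (53.3%) and in 21.8% of 15843 protein-coding promoters, in 12 of the 19 members with a window that rose and in 10 of the 21 that fell. The 12 members without a window, SYT13, SYT7 and DOC2A among them, are not in these counts. Median GC content was 70.0% for the members that rose, 69.6% for those that fell and 62.4% for all these promoters, and the part of base composition in the GC box counts was not tested. The right arm of RE1 (GGACAGCGC) was in 3 member windows (6.67%, against 0.619% of all), those of BSN, RPH3A and UNC13A. All 3 genes fell, where 21 of the members with a window fell and 19 rose. The RPH3A window lies well inside the gene, and the motifs were chosen after the values were seen. Only exact matches were counted. The SYN1 window printed above also holds ggacagtgc, which differs from the right arm in 1 letter and starts 2 bases after the left arm. Near matches of this kind were not searched for in the other windows. The left arm was in SYN1 alone (2.22%, against 0.29% of all). An estrogen-related receptor element (TCAAGGTCA), bound by ESRRA, a known partner of PGC-1a, was in 0 of 45 windows and in 0.215% of all promoters. Its core AAGGTCA, which that element contains, was in 1 (SYT6, not tested), against 2.79% of all. The NRF1 site was in BSN alone, in 2 places, against 1.48% of all promoters, and the first of these overlaps the right arm of RE1 there. The cyclic AMP element, found in 2.32% of all promoters, was in SYN1 alone. Of 7 motifs searched, none is a statement on binding.

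Genes of the calcium sensor role, the synaptotagmin and DOC2 genes, moved both ways, and not all of them encode proteins that bind calcium. Of 13 tested, 5 rose and 8 fell, and each of the 13 was also past 1.5-fold. SYT13 (ENSG00000019505.7, chromosome 11, 45240301 to 45286319, GRCh38), an atypical synaptotagmin that does not bind calcium, stood at 2.78, 2.69 and 3.71 CPM in GFP and 209, 212 and 211 in PGC1A (log2 fold change 6.09, with an SE of 0.05 and adjusted p = 1.55e-56). SYT7 (ENSG00000011347.9, chromosome 11, 61515313 to 61581148), the high-affinity sensor of slow, asynchronous release, was at 6.31, 6.55 and 6.99 CPM in GFP and 175, 171 and 185 in PGC1A (log2 fold change 4.73, with an SE of 0.05 and adjusted p = 3.24e-54). Both genes were low in every GFP library and high in every PGC1A library. DOC2A, a high-affinity sensor of spontaneous and asynchronous release, rose from 3.88, 4.04 and 4.30 CPM to 31.1, 32.6 and 35.0 (log2 fold change 3.01, with an SE of 0.07 and adjusted p = 1.04e-37). SYT12 and SYT17, further members without clear calcium binding, rose by 2.62 and 2.40 on the log2 scale, to 7.05 ± 0.876 and 29.1 ± 0.352 CPM (SD, n = 3).

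The largest fall among the sensors was that of SYT5 (ENSG00000129990.14, chromosome 19, 55171199 to 55180441), a calcium-binding synaptotagmin found on dense-core vesicles, from 12.4, 13.8 and 15.1 CPM in GFP to 0.785, 0.836 and 0.627 in PGC1A (log2 fold change −4.20, with an SE of 0.13 and adjusted p = 2.93e-32). SYT9, a fast calcium sensor in some mouse neurons, went from 19.9, 19.5 and 18.1 CPM to 2.99, 2.73 and 2.55 (log2 fold change −2.79, with an SE of 0.09 and adjusted p = 3.11e-32). DOC2B, the close paralog of DOC2A, moved the opposite way to it, from 6.70, 6.76 and 6.82 CPM to 1.72, 1.60 and 1.69 (log2 fold change −2.02, with an SE of 0.12 and adjusted p = 9.00e-21). None of these 3 genes had a PGC1A library near its lowest GFP library. SYT11, a synaptotagmin that binds calcium poorly and restrains endocytosis, was the best expressed of the sensors per kilobase of exon in GFP; it was at 405, 396 and 403 CPM in GFP and 132, 133 and 132 in PGC1A (log2 fold change −1.60, with an SE of 0.03 and adjusted p = 6.16e-45). SYT1, the main sensor of fast synchronous release, fell from 153 ± 2.76 to 74.1 ± 2.44 CPM (log2 fold change of −1.04, SE 0.03), and its relative SYT4 from 229 ± 2.96 to 116 ± 0.704 (−0.98, SE 0.03). SYT14 and SYT3 fell by 1.28 and 0.99 on the log2 scale. SYT6 had 2, 0 and 1 counts in GFP and 0 in PGC1A and was not tested.

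Expressed per kilobase of exon, the synaptotagmin family had another make-up in each group. The 17 synaptotagmin genes, 5 of them from outside the 57, summed to 166 ± 1.83 CPM per kb in GFP and 152 ± 1.38 in PGC1A (SD, n = 3). SYT11 held 46.1% ± 0.400 of that sum in GFP and 16.6% ± 0.192 in PGC1A, SYT4 31.0% ± 0.136 and 17.2% ± 0.253, and SYT1 14.1% ± 0.164 and 7.50% ± 0.182. SYT13 went from 0.339% ± 0.0589 to 25.6% ± 0.275, and SYT7 from 0.669% ± 0.0304 to 19.5% ± 0.628. SYT2, not among the 57, went from 0.0842% ± 0.0157 to 8.60% ± 0.0302. In PGC1A the leading synaptotagmins by this measure were SYT13 and SYT7, ahead of SYT4 and SYT11.

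**Figure D3:**
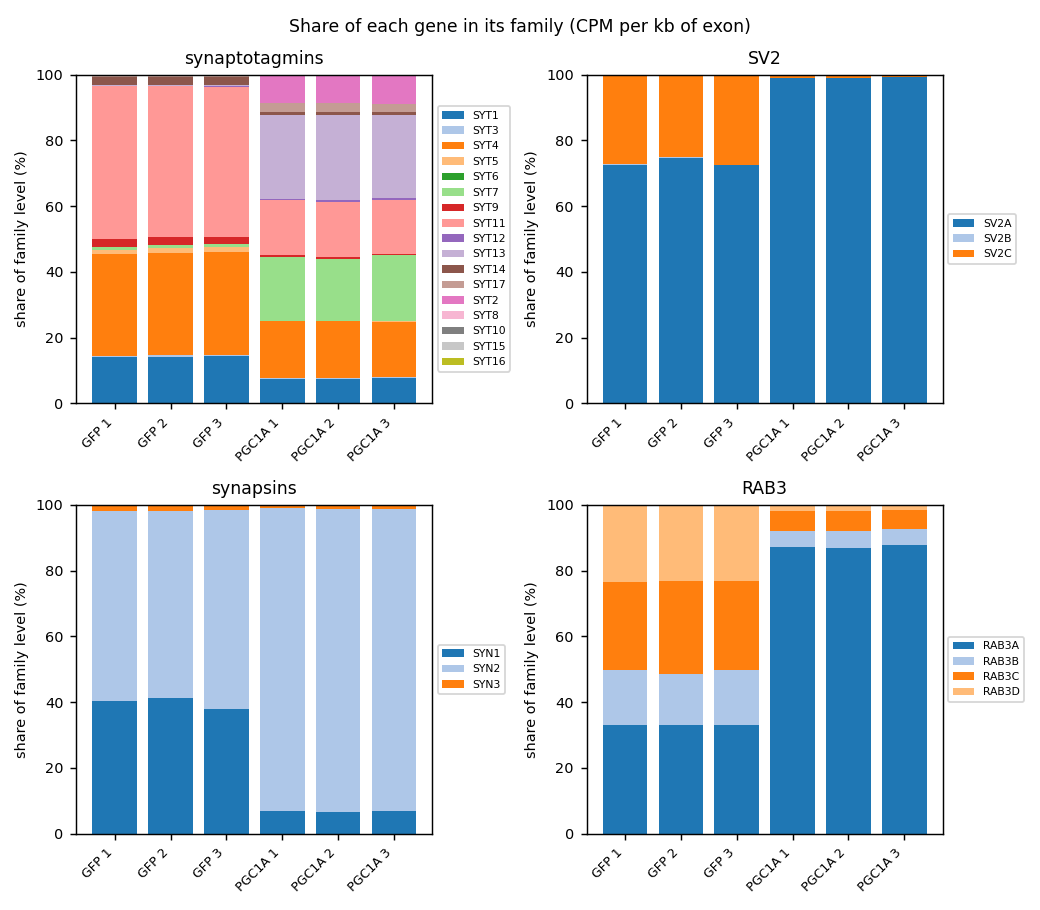
Share of each gene in the summed level of its family (vertical axis, % of CPM per kb of exon) in each of the 6 libraries (horizontal axis), for synaptotagmins, SV2, synapsins and RAB3, with the family genes outside the 57 included. SYT13 and SYT7 fill 25.6% and 19.5% of the synaptotagmin bars in PGC1A, and SV2A, SYN2 and RAB3A fill 99%, 91.9% and 87.3% of theirs. SV2A, SYN2 and RAB3A also held the largest share of their families in GFP, at 73.3%, 58.3% and 33.1%.

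SNARE genes moved less, and those of the core complex did not move together. Of 8 tested, 4 rose and 3 fell. VAMP2, the vesicle SNARE, rose from 33.4, 33.5 and 34.3 CPM to 91.7, 95.5 and 90.7 (log2 fold change 1.46, with an SE of 0.04 and adjusted p = 5.91e-37). STX1A (ENSG00000106089.11, chromosome 7, 73699206 to 73719672), its partner on the cell membrane, fell from 18.7, 19.5 and 20.0 CPM to 6.39, 6.95 and 6.70 (log2 fold change −1.54, with an SE of 0.07 and adjusted p = 1.97e-25); 17.9% of its exon bases lie in another gene, the highest share of any member. SNAP25, the remaining subunit, was at 49.2, 50.1 and 49.4 CPM in GFP and 51.1, 54.2 and 53.0 in PGC1A (log2 fold change 0.09, with an SE of 0.04 and adjusted p = 0.0228). Its change was small: it was not past 1.5-fold (glmTreat adjusted p = 1), and it turned to −0.038 with upper-quartile factors and −0.24 with total counts. VAMP1, the related vesicle SNARE, overlapped between the groups, with 10.6, 11.4 and 10.8 CPM in GFP and 9.83, 9.57 and 10.7 in PGC1A (log2 fold change −0.12, with an SE of 0.07 and adjusted p = 0.111); it was called lower with upper-quartile factors (log2 fold change −0.25, adjusted p = 0.00164) and total counts (−0.45, adjusted p = 2.47e-07).

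Of the genes that recycle or regulate SNAREs, NSF and NAPB rose, and STXBP5 and CPLX2 fell. NSF (ENSG00000073969.18, chromosome 17, 46590669 to 46757464), the ATPase that takes SNARE complexes apart, was at 53.0, 51.4 and 51.7 CPM in GFP and 188, 182 and 180.0 in PGC1A (log2 fold change 1.82, with an SE of 0.03 and adjusted p = 4.50e-44). NAPB, the neuronal SNAP adaptor through which NSF binds, rose from 31.7, 31.1 and 30.8 CPM to 62.0, 61.9 and 60.9 (log2 fold change 0.98, with an SE of 0.04 and adjusted p = 2.13e-28). Both were higher in every PGC1A library than in any GFP library. NSF has a near-identical pseudogene, NSFP1, whose row held 2 counts in GFP and 6 in PGC1A, so the count of NSF is uncertain where reads match both. STXBP5 (tomosyn), which competes for syntaxin and inhibits fusion, fell from 91.1, 91.3 and 94.9 CPM to 32.1, 31.6 and 31.9 (log2 fold change −1.54, with an SE of 0.04 and adjusted p = 1.35e-37). CPLX2, a complexin that clamps and then promotes fusion, fell from 42.6 ± 0.390 to 26.9 ± 0.755 CPM (log2 fold change −0.66, with an SE of 0.04 and adjusted p = 1.94e-19), close to the 1.5-fold limit (glmTreat adjusted p = 0.0224).

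Vesicle membrane genes included SV2A, the member with the highest level per kb in PGC1A. Of 9 tested, 6 rose and 3 fell. SV2A (ENSG00000159164.9, chromosome 1, 149903318 to 149917882), a vesicle glycoprotein and the binding site of the antiepileptic levetiracetam, rose from 130.1, 140.1 and 135 CPM to 1027, 1024 and 1039 (log2 fold change 2.93, with an SE of 0.03 and adjusted p = 1.79e-55). SYP (ENSG00000102003.10, chromosome X, 49187804 to 49200259), synaptophysin, the classic vesicle marker whose promoter is printed above, rose from 59.3, 56.2 and 57.6 CPM to 437, 427 and 421 (log2 fold change 2.89, with an SE of 0.03 and adjusted p = 9.34e-54). SYNGR1 (synaptogyrin 1), of the same tetraspan fold, rose from 9.23, 8.24 and 8.54 CPM to 72.1, 72.4 and 73.0 (log2 fold change 3.07, with an SE of 0.05 and adjusted p = 3.69e-45). In each of these 3 genes every PGC1A library was far above every GFP library. SYNGR3, its relative, rose from 18.0 ± 0.469 to 60.6 ± 1.98 CPM (log2 fold change of 1.75, SE 0.04).

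Within the SV2 and synapsin families, 1 gene rose as another fell. SV2C, the isoform known from basal ganglia neurons, went from 122, 118 and 126 CPM in GFP to 26.5, 25.3 and 23.9 in PGC1A (log2 fold change −2.27, with an SE of 0.04 and adjusted p = 1.23e-43), so that its share of the SV2 family went from 26.6% ± 1.26 to 0.974% ± 0.0561 of CPM per kb. SV2B stayed under 1 CPM and changed by −0.83, SE 0.31 (adjusted p = 0.0131), a call that was lost with DESeq2 (adjusted p = 0.156), without GFP replicate 2 (0.0947) and without PGC1A replicate 3 (0.0686). SYN1, a synapsin that tethers vesicles to the cytoskeleton, fell from 11.2, 11.0 and 9.57 CPM to 4.86, 4.37 and 4.51 (log2 fold change −1.20, with an SE of 0.09 and adjusted p = 4.84e-17), while SYN2 rose from 23.0 ± 0.721 to 91.8 ± 3.46 CPM (log2 fold change 2.00, with an SE of 0.04 and adjusted p = 5.19e-41). SYN1 was 39.8% ± 1.66 of synapsin level per kb in GFP and 6.81% ± 0.189 in PGC1A. SYN3 was at 0.706 ± 0.0536 CPM in GFP and 1.20 ± 0.125 in PGC1A (log2 fold change 0.76, with an SE of 0.23 and adjusted p = 0.00221), and total counts took away the call (adjusted p = 0.0739). SYNPR (synaptoporin) had 16 counts summed over GFP and 1 over PGC1A and was not tested.

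**Figure D4:**
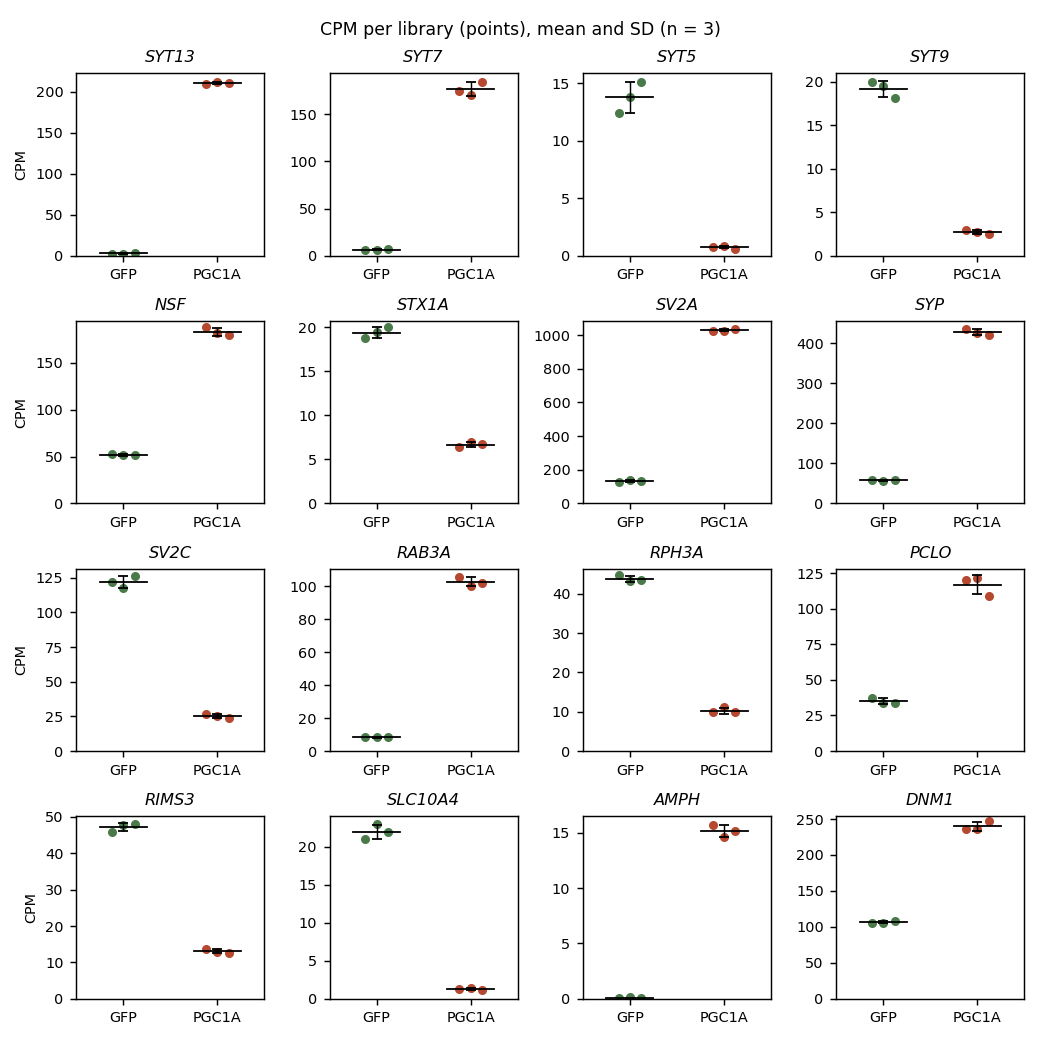
CPM in each library (points) with the mean and SD of each group (black) for 16 members from all 7 roles, on linear axes that start at 0. In every panel the 3 GFP libraries and the 3 PGC1A libraries occupy separate ranges.

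RAB3A led its family per kb of exon in both groups, and by more in PGC1A. The small GTPase RAB3A (ENSG00000105649.9, chromosome 19, 18196784 to 18204074), which brings vesicles to the active zone, rose from 8.59, 8.30 and 8.37 CPM to 106, 100.4 and 102 (log2 fold change 3.61, with an SE of 0.05 and adjusted p = 2.49e-49), and its share of the summed level per kb of RAB3A to RAB3D went from 33.1% ± 0.145 to 87.3% ± 0.418. RAB3D, not among the 57, held 23.3% ± 0.358 of that sum in GFP and 1.73% ± 0.141 in PGC1A. RAB3B rose little, from 29.3 ± 1.62 to 41.6 ± 0.520 CPM (log2 fold change 0.51, with an SE of 0.04 and adjusted p = 6.70e-15), and was not past 1.5-fold (glmTreat adjusted p = 1). RAB3C had overlapping groups, with 36.7, 37.4 and 36.3 CPM in GFP and 39.0, 38.4 and 34.7 in PGC1A (log2 fold change 0.02, with an SE of 0.04 and adjusted p = 0.611); with upper-quartile factors and total counts it was lower, at −0.10 and −0.31. The RAB3 effectors differed: RPH3A (rabphilin) fell from 44.7, 43.3 and 43.6 CPM to 9.83, 11.2 and 9.84 (log2 fold change −2.09, with an SE of 0.05 and adjusted p = 7.22e-36), and RPH3AL, known as Noc2 in endocrine cells, rose from 3.35, 3.44 and 2.95 CPM to 5.50, 6.23 and 6.58 (log2 fold change 0.91, with an SE of 0.11 and adjusted p = 1.25e-10). Of the 5 genes of this role, 3 rose, 1 fell and 1 did not pass.

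Active zone genes moved both ways. Of 9 tested, 4 rose and 5 fell; past 1.5-fold there were 2 and 4. RIMS1, RIMS2 and RIMS3 fell; full-length RIM proteins tie vesicles to calcium channels, and RIMS3 encodes a short form. RIMS3 went from 45.9, 47.7 and 48.1 CPM to 13.6, 12.9 and 12.7 (log2 fold change −1.85, with an SE of 0.05 and adjusted p = 3.37e-35) and RIMS1 from 9.09, 8.21 and 10.2 to 2.24, 2.89 and 2.66 CPM (log2 fold change −1.82, with an SE of 0.11 and adjusted p = 2.07e-20). RIMS2 fell from 27.9 ± 0.984 to 17.6 ± 0.363 CPM (log2 fold change of −0.67, SE 0.05, glmTreat adjusted p = 0.0411). RIMS4, a further short RIM gene that is not among the 57 and was added here for the family, was at 50.8, 52.6 and 51.9 CPM in GFP and 68.8, 64.7 and 66.5 in PGC1A (log2 fold change 0.36, with an SE of 0.04 and adjusted p = 2.89e-13), within 1.5-fold, and the call was lost under total counts (adjusted p = 0.356). It was the best expressed RIM gene per kb in both groups, with 51.7% ± 0.591 of the summed level of the 4 genes in GFP and 79.5% ± 0.292 in PGC1A. That sum was 19.2 ± 0.281 CPM per kb in GFP and 16.1 ± 0.440 in PGC1A. UNC13A, the Munc13 protein that primes vesicles at most excitatory synapses in mouse, fell from 62.0, 60.0 and 61.8 CPM to 26.9, 26.9 and 28.7 (log2 fold change −1.15, with an SE of 0.04 and adjusted p = 2.64e-30). Its relative UNC13B, the best expressed gene of this role per kb over the groups, was at 82.3, 80.4 and 80.1 CPM in GFP and 89.0, 87.9 and 86.9 in PGC1A (log2 fold change 0.12, with an SE of 0.03 and adjusted p = 4.09e-04), a change within 1.5-fold that turned to −0.0070 with upper-quartile factors and −0.21 with total counts.

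PCLO (piccolo), a scaffold of the active zone, rose from 37.4, 34.1 and 33.7 CPM to 119.9, 122 and 109 (log2 fold change 1.74, with an SE of 0.04 and adjusted p = 2.66e-28), whereas its partner scaffold BSN (bassoon) fell from 37.5 ± 0.984 to 27.1 ± 0.726 CPM (log2 fold change −0.47, with an SE of 0.04 and adjusted p = 1.24e-13), within 1.5-fold. The PCLO libraries of the groups were far apart, and those of BSN closer but without overlap. CADPS (CAPS), which primes dense-core vesicles, rose from 42.0, 42.7 and 40.1 CPM to 74.3, 75.8 and 75.2 (log2 fold change 0.85, with an SE of 0.04 and adjusted p = 4.84e-27). ERC2, a further scaffold, was at 5.17, 5.01 and 5.59 CPM in GFP and 7.03, 7.60 and 8.39 in PGC1A (log2 fold change 0.54, with an SE of 0.09 and adjusted p = 7.09e-07), within 1.5-fold (glmTreat adjusted p = 0.679). CADPS2 had 7 counts in GFP and 2 in PGC1A and was not tested.

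Among vesicular transporters, SLC10A4 fell and SLC17A7 and SLC32A1 rose to low levels. SLC10A4 (ENSG00000145248.6, chromosome 4, 48483343 to 48489196), an orphan carrier on cholinergic and monoaminergic vesicles, fell from 21.1, 23.0 and 21.9 CPM to 1.35, 1.44 and 1.18 (log2 fold change −4.05, with an SE of 0.10 and adjusted p = 7.74e-37), and from rank 6 to rank 45 of the 57 members by CPM per kb. SLC17A7 (VGLUT1, which loads glutamate) was at 0.535, 0.875 and 0.674 CPM in GFP and 5.94, 7.37 and 7.13 in PGC1A (log2 fold change 3.27, with an SE of 0.15 and adjusted p = 6.57e-25). SLC32A1 (VGAT, which loads GABA and glycine) was at 0.392, 0.241 and 0.337 CPM in GFP and 3.74, 3.49 and 3.14 in PGC1A (log2 fold change 3.42, with an SE of 0.21 and adjusted p = 3.03e-20). Both were higher in every PGC1A library, though far below SV2A or SYP in CPM. GAD1, the GABA-making enzyme gene among the markers, moved from 1.55 ± 0.0857 to 11.1 ± 0.957 CPM (log2 fold change 2.84, with an SE of 0.11 and adjusted p = 2.61e-28), and the summed 5 GABAergic markers, SLC32A1 among them, were at 2.11 to 2.25 CPM in GFP and 14.6 to 17.5 in PGC1A. Of the 4 glutamatergic markers NEUROD6 was at 0 in all libraries, and SLC17A6 (VGLUT2) had 2 counts in GFP and 0 in PGC1A and was not tested. TBR1, also too low to test, had 2, 4 and 5 counts in GFP and 8, 8 and 12 in PGC1A. SLC17A8 (VGLUT3), not among the 57, was at 0.829 ± 0.180 CPM in GFP and 0.548 ± 0.122 in PGC1A and did not pass (log2 fold change −0.57, with an SE of 0.28 and adjusted p = 0.0515).

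Endocytic genes rose in 4 of 6 cases and fell in 2, and no fall was past 1.5-fold. AMPH (ENSG00000078053.16, chromosome 7, 38383704 to 38631567), amphiphysin, which senses membrane curvature and recruits dynamin, was nearly silent in GFP with 1, 4 and 1 counts and had 420, 385 and 386 in PGC1A. Its CPM were 0.0356, 0.121 and 0.0281 and 15.7, 14.6 and 15.1, the largest rise of any member (log2 fold change 7.84, with an SE of 0.19 and adjusted p = 4.19e-37). SYNJ1, the lipid phosphatase that strips clathrin coats, rose from 35.7, 34.0 and 34.9 CPM to 83.5, 82.5 and 85.6 (log2 fold change 1.27, with an SE of 0.04 and adjusted p = 3.42e-34). DNM1, the dynamin of synaptic endocytosis, rose from 106, 106 and 109 CPM to 237, 236 and 247 (log2 fold change 1.17, with an SE of 0.03 and adjusted p = 1.10e-37). DNM1 has many partial copies: 17 pseudogene rows held 319 counts in GFP and 1061 in PGC1A, so its count is uncertain where reads match them. SNAP91, the clathrin assembly protein AP180, rose from 32.3 ± 1.21 to 51.8 ± 0.530 CPM (log2 fold change of 0.68, SE 0.04). BIN1, the widely expressed relative of amphiphysin, fell from 70.8, 67.8 and 67.7 CPM to 45.8, 49.1 and 47.1 (log2 fold change −0.54, with an SE of 0.04 and adjusted p = 9.79e-19), and DNM3 from 15.5, 15.6 and 15.3 to 13.4, 13.0 and 13.8 (log2 fold change −0.21, with an SE of 0.06 and adjusted p = 0.00249); the call for DNM3 was lost with DESeq2 (adjusted p = 0.0890).

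Ordered by level per kilobase of exon, the members changed places between the groups. In GFP the order began with SYT11 (76.6 CPM per kb), SYT4 (51.5), SV2A (28.0) and SYT1 (23.5). In PGC1A it began with SV2A (214 CPM per kb), SYP (82.1), RAB3A (56.6) and SYT13 (38.9). Of the top 10 in each group, 6 genes were the same. SYT13 moved from rank 46 to 4 and SYT7 from 39 to 6. Summed over all 57 members the level was 380 ± 2.05 CPM per kb in GFP and 735 ± 3.12 in PGC1A, and SV2A made up 7.37% ± 0.286 of it in GFP and 29% ± 0.207 in PGC1A. As a share of all gene counts, without correction for length, the members took 0.261% to 0.266% in GFP and 0.355% to 0.363% in PGC1A. Replicates of most members varied little: the median coefficient of variation over the 51 members at a mean of 1 CPM or more was 3.26% in GFP and 3.53% in PGC1A. The largest was 83.7% in GFP, that of AMPH with 1, 4 and 1 counts, and 14.5% in PGC1A.

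**Figure D5:**
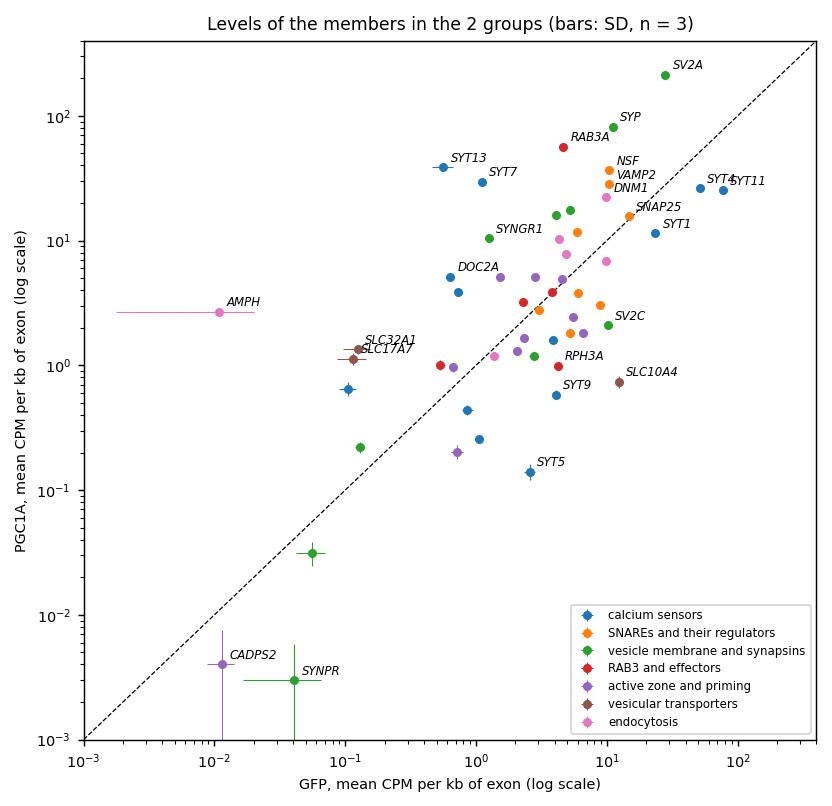
Mean level in PGC1A (vertical axis) against GFP (horizontal axis) in CPM per kb of exon, both on log scales, for the members with counts in both groups; bars show the SD (n = 3, cut just above 0 where they would pass it) and the dashed line marks equal levels. SV2A, SYP, RAB3A, SYT13 and SYT7 lie above the line, and SYT11, SYT4, SLC10A4, SV2C and SYT5 below it.

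Of 87 further genes of vesicle release and recycling, listed by role with earlier results of these data known, 78 were tested. Of these, 38 rose, 34 fell and 6 did not pass, and past 1.5-fold there were 23 and 19. The calls made up 92.3% of those tested, against 83.0% of all genes, and those past 1.5-fold 53.8%, against 47.8%. Their median log2 fold change was 0.07. Several were nearly silent in GFP. PACSIN1, which links dynamin to the cytoskeleton, had 8, 6 and 3 counts in GFP and 2288, 2247 and 2179 in PGC1A (log2 fold change 8.89, with an SE of 0.10 and adjusted p = 5.34e-52). SH3GL2 (endophilin A1), the partner of SYNJ1 and amphiphysin, went from 0.0745 ± 0.0282 to 2.59 ± 0.267 CPM (log2 fold change of 5.08, SE 0.31). Like AMPH, both genes had few reads in every GFP library. BAIAP3, a Munc13 relative of dense-core vesicle traffic, rose from 0.618 ± 0.124 to 24.5 ± 1.37 CPM (5.32, SE 0.11), and SYPL2, a synaptophysin relative of muscle, from 0.149 ± 0.0564 to 2.95 ± 0.395 (4.31, SE 0.27).

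Of the non-member sensors and SNARE genes, SYT2 reached 102 ± 1.25 CPM (log2 fold change of 6.54, SE 0.07; 27.1% of its exon bases lie in other genes), and CPLX1 reached 208 ± 2.57 (4.21, SE 0.04), the opposite direction to CPLX2. SYTL2, a synaptotagmin-like RAB27 effector, and STXBP2, the Munc18 protein of granule release in blood cells, rose by 1.10 and 2.22 on the log2 scale, whereas SYT16, SYTL1, STX2 and VAMP4 fell by 3.36, 2.17, 1.68 and 1.14. Among the remaining roles, SCAMP5, a vesicle membrane protein gene, rose by 1.62, RAB3IP and MADD, which activate RAB proteins, rose by 2.02 and 1.07, and PPFIA1, a liprin scaffold gene, rose by 0.70. Falls were measured for SLC18A1 and SLC18A3, the vesicular carriers of monoamines and acetylcholine (log2 fold changes −4.85 and −2.33), RAB27B (−1.98), RAB3D (−1.54, with 24.9% of its exon bases in other genes), RIMBP2, which binds RIM proteins (−1.44), ERC1 (−0.45), STON1 (−1.81, with 29.1%) and FCHO2 (−1.23), the last being an early clathrin pit protein gene. The 24 genes named here for their rise or fall were picked from those that passed, so their passing is no result. Their adjusted p (edgeR quasi-likelihood test) lay between 2.93e-55 (CPLX1) and 5.03e-13 (SYTL1).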

How the data were processed

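The authors deposited raw counts of reads, 1 row per gene and 1 column for each of 6 libraries. Libraries were poly(A)-selected and directional, per the labels' protocols. The submitters' processing notes name HTSeq 0.10.0, STAR 2.6.0c, DRAGEN and DESeq2 1.20.0 with build GRCh38; what each did, the annotation release and the strand setting were not given in the sources used here. Of 742 genes whose exon bases all lie in opposite-strand exons, 18 had any count (2.43%), against 77.0% of antisense genes that share no base, so reads in such bases were mostly left unassigned. The 5 HTSeq summary lines (28.8% to 31.0% of reads) entered neither library sizes nor tests, and 0 columns had no sample.

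Identifiers were matched without version to GENCODE 29 or current symbols. All 57 members, 87 of 88 further genes (VAMP7, with copies on X and Y, was left out) and 43 markers matched. Counts were fitted with edgeR 4.0.16 (R 4.3.3): filterByExpr (minimum count 10 and total 15, its defaults), then TMM factors, robust glmQLFit, glmQLFTest on group, Benjamini-Hochberg adjustment over 19343 genes, threshold 0.05, two-sided. The SE is the log2 fold change divided by the root of the F statistic. glmTreat tested against 1.5-fold. Levels per kb divide CPM by the union exon length. Depth of 24988743 to 31762496 counts per library limits genes with few reads; 4 members were too low to test. Replicate pairs differed by more than counting noise (chi-square per degree of freedom 1.23 to 2.60). The procedure was tested on simulated data.

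Values by library were given, per role, for up to 3 called members with the largest rise and up to 3 with the largest fall at a mean of 1 CPM or more and for the member highest per kb; further genes were named up to 2 each way. Values by library of SNAP25, VAMP1, RAB3C and RIMS4, the values of SLC17A8, and the panels plotted by library, were chosen after their values were seen. The members and lists were chosen with earlier results of these data known, and the motifs and printed promoters were chosen after the values were seen. Alternatives were RLE factors, upper-quartile factors, total counts, no filter beyond 1 count, 1 CPM in 3 libraries, DESeq2 1.42.0, a replicate block and each library left out.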

Additional observations from a re-analysis of the deposited data

How the results depend on the processing

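Under 13 alternatives, 46 of the 53 tested members kept their direction and their side of the threshold. The count of members called was 49 to 52 throughout (50 to 51 with 1 library left out), and 37 to 42 passed the 1.5-fold test. Scaling moved the balance: total counts gave 25 members higher and 27 lower, upper-quartile factors 26 and 25, against 28 and 23 with TMM, and over all genes 5778 higher and 10743 lower against 7909 and 8148. The members' median log2 fold change turned to −0.0070 with upper-quartile factors and −0.21 with total counts, and the median of all genes turned from −0.03 to 0.0019 with RLE factors and 0.0075 with DESeq2. SNAP25 (−0.038 and −0.24), RAB3C (−0.10 and −0.31) and UNC13B (−0.0070 and −0.21) turned lower with upper-quartile factors and with total counts, since those scalings place all PGC1A values lower. The call for SNAP25 was lost without GFP replicate 1, GFP replicate 3 or PGC1A replicate 2 (adjusted p = 0.0945, 0.0942 and 0.0721). SYNPR, too low for the main filter, passed as lower with no filter beyond 1 count (adjusted p = 0.00352) and with DESeq2 (0.0362). Replicates with the same number did not deviate together (correlations −0.011, 0.006 and 0.011 across genes). No pairing by number was visible, but samples paired with little shared variation would look the same. With a replicate block 51 members were called. Depth limits the members under 1 CPM.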

Other observations

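SV2B and SLC17A7 had the same 3 counts in the GFP libraries, 15, 29 and 24, but differed in PGC1A, with 13, 10 and 8 for SV2B and 159, 194 and 182 for SLC17A7. They lie on chromosomes 15 and 19.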
